A study of Mus musculus with 12 samples.

Results

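The genes of the cytosolic ribosomal proteins were followed in interscapular brown adipose tissue of mice with and without Cdk7, in the cold and at room temperature. Members were the protein-coding genes whose GRCm38 symbol is that of a ribosomal protein of the large subunit (Rpl), the small subunit (Rps) or the stalk (Rplp0 to Rplp2), or Rpsa, leaving out pseudogenes and the Rps6k kinases, with at least 10 counts in at least 3 of the 12 libraries. Of 53379 gene IDs counted, 86 had such a symbol and 82 reached that level. The 82 comprised 41 genes of the large subunit, 31 of the small subunit, 3 of the stalk, 5 paralogs (Rpl3l, Rpl22l1, Rpl39l, Rps27l and Rps27rt) and 2 genes, Rpl7l1 and Rps19bp1, that the symbol rule takes although their products are not constituents of the mature ribosome. The first 3 classes, 75 genes, are called structural below.

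The cytosolic ribosome reads mRNA in its small subunit and joins amino acids in its large subunit, and the stalk proteins recruit the translation factors. Nearly all ribosomal proteins are made in equal number and are among the most abundant products of any cell. Their mRNAs start with a run of pyrimidines (the TOP motif), through which the kinase complex mTORC1 controls their translation. Many of these genes also carry small nucleolar RNAs in their introns, and most have numerous processed pseudogenes.

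There were 4 groups of 3 libraries. The first was from Cdk7 bKO mice (KO), with a Cdk7 deletion meant for brown adipose tissue, after 6 h of cold with food, and the second from control littermates (WT) treated in the same way. The other two were KO mice at room temperature and WT mice at room temperature. All mice were of the C57BL/6 strain and 12 weeks old, and were sampled at zeitgeber time 9. Each library pooled the RNA of 2 mice, 250 ng from each, so a p-value measures the spread between 3 pools per group. Cdk7 encodes the kinase of the CDK-activating complex and of the general transcription factor TFIIH. The driver of the deletion, the sex of the mice and the temperature of the cold are not given here, and other cell types of the tissue should still carry Cdk7.

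Assigned reads ran from 27609717 to 36792555 per library, and mitochondrially encoded genes took 31.1 to 42.5% of them. Cdk7 was at 5.39, 4.85 and 5.39 CPM (counts relative to library size, scaled with TMM factors) in KO libraries of the cold, against 17.9, 16.1 and 15.7 CPM in WT libraries of the cold, and at 4.35, 5.15 and 5.77 CPM in KO libraries at room temperature, against 16.4, 15.1 and 16.1 CPM in WT libraries. The 12 brown adipocyte markers summed to 8087 to 8965 CPM in KO cold libraries and to 22200 to 25570 CPM in WT cold libraries. Of these sums, Ucp1, the uncoupling protein of heat production, made up 3723, 4283 and 4207 CPM in KO cold and 17540, 15940 and 14790 CPM in WT cold libraries. General adipocyte markers (8 genes) summed to 11230 to 11880 CPM in KO cold and to 12880 to 13110 CPM in WT cold libraries. Of the 8, 2 were lower and 0 higher in KO in the cold on the TMM scale, and 1 lower and 4 higher with library totals alone. Of 15208 genes tested, 4222 were lower and 3939 higher on the TMM scale, and 1073 lower and 7881 higher with library totals alone. Macrophage markers (13 genes) summed to 337 to 450 CPM in KO against 126 to 138 CPM in WT in the cold, and to 271 to 364 CPM in KO against 88.3 to 119 CPM in WT at room temperature. Other cell types also had markers higher in KO in the cold, on the TMM scale: 9 of 11 endothelial genes (1 lower), 6 of 10 of fibroblasts, 7 of 10 of smooth muscle and pericytes (1 lower) and 7 of 11 of T and B cells. In whole tissue, fewer cells of a type and less RNA per cell cannot be told apart, and the part of these cell types in the results below was not tested. Skeletal muscle markers (15 genes) summed to 2.54 to 344 CPM in 10 libraries but to 1336 CPM in KO room temperature replicate 6 and 911 CPM in WT room temperature replicate 2.

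Sequence set limits on what could be counted. Reads that aligned to several places, 26.6 to 30.2% of all alignments tallied per library, were given to no gene. The coding start of Rps27 and its paralogs shows the difficulty, 90 bases each, 5′ to 3′ from the start codon, from the GENCODE M21 transcripts of GRCm38, with capitals where a paralog departs from Rps27.
Rps27: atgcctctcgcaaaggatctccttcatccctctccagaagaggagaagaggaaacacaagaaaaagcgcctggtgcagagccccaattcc
Rps27rt: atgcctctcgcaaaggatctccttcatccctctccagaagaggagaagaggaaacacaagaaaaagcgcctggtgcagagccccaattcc
Rps27l: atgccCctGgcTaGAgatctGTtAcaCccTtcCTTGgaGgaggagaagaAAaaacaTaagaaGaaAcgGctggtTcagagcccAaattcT
Rps27rt, on chromosome 9, matched Rps27, on chromosome 3, at all 90 positions, while Rps27l, also on chromosome 9, differed at 24. Of the Rps27 transcript, 98.6% of the 50-base windows occurred in another gene, against 91.1% for Rps27rt and 22.4% for Rps27l. Reads that could not be told apart between Rps27 and Rps27rt were given to neither, so the values of both are uncertain. Over the 12 libraries Rps27 had 26763 counts and Rps27rt 511.

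Promoters of 5 members whose values are described below are shown from base 60 before to base 30 after the RefSeq start (GRCm38.p6), 5′ to 3′ on the gene's strand, with the longest run of C and T near the start in capitals.
Rpsa, plus strand, chr9:120127706-120127795: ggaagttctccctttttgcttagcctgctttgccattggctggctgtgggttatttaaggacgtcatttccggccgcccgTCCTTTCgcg
Rps6, minus strand, chr4:86857338-86857427: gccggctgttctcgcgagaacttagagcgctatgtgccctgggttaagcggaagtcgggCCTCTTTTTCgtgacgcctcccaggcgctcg
Rpl7a, plus strand, chr2:26910747-26910836: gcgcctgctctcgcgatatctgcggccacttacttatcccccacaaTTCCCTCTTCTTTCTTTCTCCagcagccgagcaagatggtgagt
Rpl13a, minus strand, chr7:45128716-45128805: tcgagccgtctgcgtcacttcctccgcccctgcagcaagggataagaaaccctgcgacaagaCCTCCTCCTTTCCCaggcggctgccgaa
Rplp2, plus strand, chr7:141447591-141447680: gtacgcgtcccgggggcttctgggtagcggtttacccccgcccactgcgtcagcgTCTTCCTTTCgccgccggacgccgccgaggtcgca
The runs were 7 bases long in Rpsa, 10 in Rps6, 21 in Rpl7a, 14 in Rpl13a and 10 in Rplp2. Rplp2, which fell with cold in WT while the other 4 rose, thus carried a run as long as that of Rps6. The GENCODE intervals of Rpsa, Rps6, Rpl7a and Rpl13a, given below, begin upstream of these RefSeq starts, that of Rpsa before its whole window. Which run lies near the start thus depends on the annotation.

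Windows from 250 bases before to 50 bases after the start were available for 62 members. A run of at least 8 pyrimidines within 25 bases of the start was present in 34 of them (54.8%), against 23.5% of 17492 protein-coding genes. Among members that rose with cold in WT it was present in 51.4% of 37, and among those not called in 58.3% of 24. CCGGAAG, the core of sites for ETS factors, searched on both strands, occurred in 25 members (40.3%), against 11.8% of protein-coding genes. It was in 40.5% of members that rose with cold in WT and in 37.5% of those not called. The cAMP response element TGACGTCA, which reads the same on both strands, was in 4 members (6.45%), against 2.22% of protein-coding genes, and in 2 of the 37 that rose. A match is a description of the letters in the window only.

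**Figure D1:**
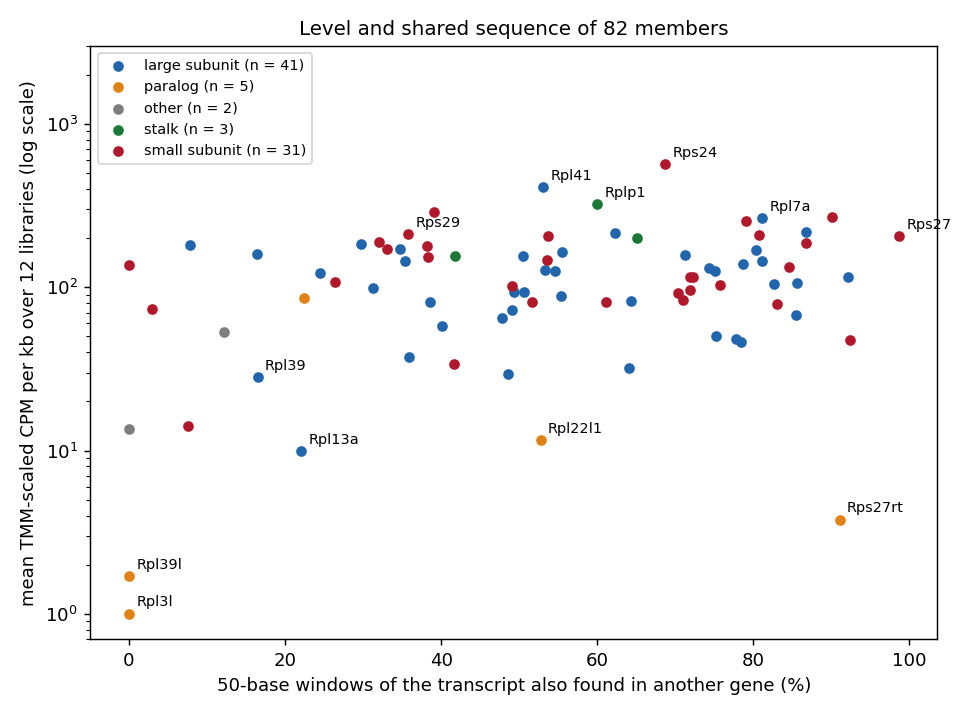
Mean level per kilobase over 12 libraries (vertical axis, log scale, CPM per kb) of each of the 82 members against the percent of its 50-base windows found in another gene (horizontal axis), coloured by class. Structural genes lie between 28.3 and 568 CPM per kb (Rps24), except Rpl13a at 9.92 and Rps20 at 14.2, and the paralogs Rpl3l, Rpl39l and Rps27rt lie lowest. The level of Rps20 is divided by a transcript of 3706 bases, the longest among the members.

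Levels per length, on the scale of CPM per kb of 1 coding transcript (the shortest of those with a consensus coding sequence), had a median of 115 over the 82 members. Rps24 (small subunit) was highest at 568 CPM per kb, followed by Rpl41, the smallest protein of the large subunit, at 412 and the stalk gene Rplp1 at 323. The 3 lowest were Rpl3l, a paralog of Rpl3 known from striated muscle, at 1.003 CPM per kb, Rpl39l, known from male germ cells, at 1.71 and Rps27rt at 3.77. Rpl13a, at 9.92 CPM per kb, was the lowest structural gene. On the same strand, 59.3% of its transcript is also annotated as Gm45713, and reads in such a shared stretch are ambiguous to the counter.

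Of the 4 genes below the threshold, Rpl13, Rpl24 and Rpl10l had 0 counts in every library and Rpl36al had 0 to 6. Rpl13 lies on chromosome 8 (123102350 to 123105244) inside the interval of the longer gene Gm20388, which had 15405 counts over the 12 libraries. Gm28037 overlaps 71.5% of the Rpl24 transcript on the same strand, and Gm49383 overlaps 63.1% of Rpl36al. No exon of another gene on the same strand overlaps the Rpl13 transcript, and why it is listed at 0 was not tested. The counts of 0 are listed values, not measured absence. The members nearest to the threshold were Rpl3l, which had at least 10 counts in 9 libraries (1 to 108 counts), and Rpl39l, which had them in 11 (8 to 65 counts).

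**Figure D2:**
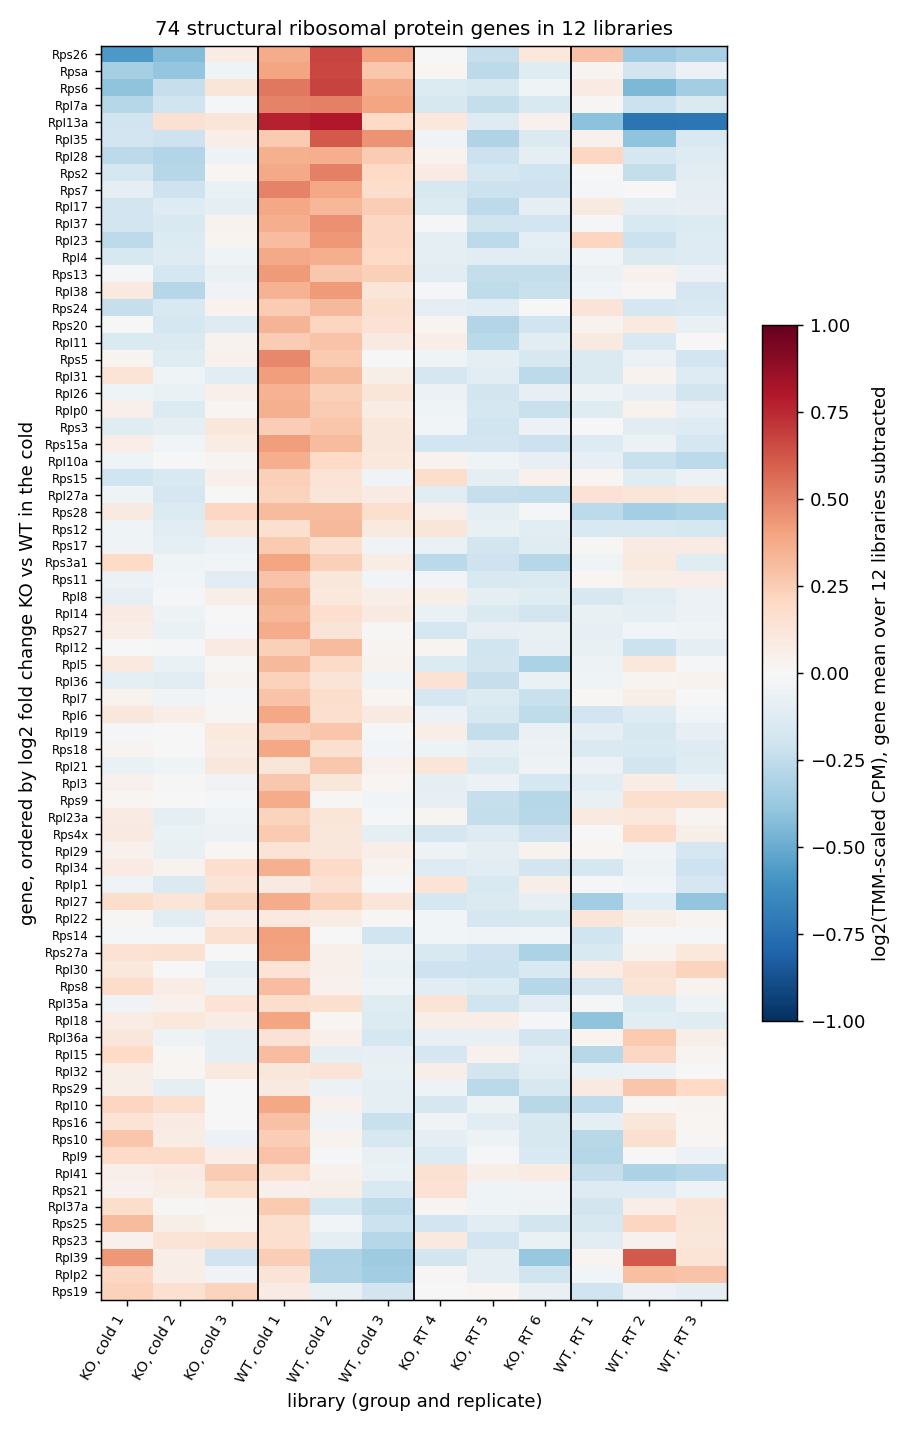
Each row is a structural gene (74 drawn), ordered by its log2 fold change of KO over WT in the cold, and each column a library, from KO cold on the left to WT room temperature on the right. Colour gives log2 CPM with TMM scaling minus the gene's mean over the 12 libraries, and the 3 WT cold columns are the reddest over most rows, with Rplp2, Rps19 and Rpl39 at the bottom as exceptions.

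The summed level of the 82 members is given as a description, with no test. It was 7360, 7177 and 7777 CPM in KO cold libraries and 9424, 9113 and 8037 CPM in WT cold libraries, and it was 7470, 6848 and 7011 CPM in KO room temperature libraries and 7428, 7209 and 7192 CPM in WT room temperature libraries. Every WT cold library lay above all others. As a plain percent of assigned reads the order differed: the members took 0.841 ± 0.0220% in KO cold, 0.740 ± 0.0739% in WT cold, 0.789 ± 0.0263% in KO room temperature and 0.695 ± 0.0581% in WT room temperature libraries (SD, n = 3 each). TMM factors were 1.07 to 1.18 in KO cold and 0.798 to 0.870 in WT cold libraries, so scaling moves every level between these groups. A median gene of the 15208 tested shifted by 0.45 (log2, KO over WT in the cold) when libraries were scaled by their totals alone, against 0.01 with TMM. Relative to that median gene, the median member stood at -0.18 under both scalings.

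On the TMM scale, cold in WT raised ribosomal protein transcripts broadly but by small steps. Of the 82 members 42 rose and 1 fell (edgeR's quasi-likelihood test, adjusted p under 0.05 over 15208 genes), against 23.0% of all genes tested higher and 23.2% lower. The median member was 0.25 higher on the log2 scale, against -0.03 for all genes. The 42 comprised 23 of 41 large subunit genes, 15 of 31 small subunit genes, the stalk gene Rplp0, the paralog Rps27rt, and both Rpl7l1 and Rps19bp1. With library totals alone 14 rose and 3 fell, and all 14 were among the 42. Of all genes tested, 1826 rose and 4813 fell under that scaling. The median member was then 0.05 higher, against -0.23 for all genes, and 26 of the 82 members turned from a positive to a negative difference. Levels in WT cold and WT room temperature libraries did not overlap for 42 members, where 55.4% of all genes did not overlap.

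Rpsa (chromosome 9, 120127689 to 120132369), a small subunit protein also known as the laminin receptor, stood at 420, 510 and 386 CPM in WT cold libraries, against 325, 282 and 308 CPM in WT room temperature libraries. All 3 cold libraries were above all 3 at room temperature, and the fitted log2 difference was 0.53 ± 0.12 (SE, edgeR adjusted p = 0.0014). Rps6 (chromosome 4, 86854660 to 86857412), the substrate of the S6 kinases downstream of mTORC1, was at 164, 181 and 146 CPM in WT cold libraries, against 120, 82.8 and 88.8 CPM at room temperature. The groups did not overlap, and Rps6 rose by 0.75 ± 0.15 (edgeR adjusted p = 0.00071). Rpl7a (chromosome 2, 26910764 to 26913318), of the large subunit, was at 333, 335 and 311 CPM in WT cold libraries, against 239, 203 and 213 CPM at room temperature, a rise of 0.58 ± 0.09 (edgeR adjusted p = 6.3e-05). Rps28, the small subunit protein at the mRNA exit, was at 34.3, 34.3 and 30.7 CPM in the cold, against 23.0, 21.8 and 22.1 CPM at room temperature, 0.57 ± 0.09 higher (edgeR adjusted p = 9e-05).

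The largest rise was that of Rpl13a (chromosome 7, 45125558 to 45128761), a large subunit protein known also for silencing inflammatory mRNAs, at 16.8, 17.2 and 11.3 CPM in WT cold libraries, against 7.40, 5.95 and 5.96 CPM at room temperature. It rose 2.35-fold (log2 1.23 ± 0.16, edgeR adjusted p = 8.1e-06), counted over the part of the gene that Gm45713 does not share. Rpl27, of the large subunit, rose by 0.52 ± 0.10 to 25.2, 22.9 and 21.2 CPM, against 15.3, 18.1 and 14.8 CPM (edgeR adjusted p = 0.00029). The rises of Rpsa, Rps6, Rpl7a, Rps28, Rpl13a and Rpl27 passed the test under each of the 26 alternative settings run for this comparison.

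Rpl7l1, a relative of Rpl7 whose counterpart in yeast acts in assembly of the large subunit, was at 106, 92.7 and 93.7 CPM in WT cold libraries, against 68.8, 59.9 and 59.8 CPM at room temperature (0.63 ± 0.09, edgeR adjusted p = 1.8e-05). Rps19bp1, whose product binds Rps19, was at 14.4, 12.9 and 12.8 CPM in the cold, against 7.78, 8.08 and 7.84 CPM (0.76 ± 0.11, edgeR adjusted p = 2.6e-05). Both also passed under all 26 alternatives.

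Rplp2, one of the acidic stalk proteins, was the member that fell: 90.9, 67.6 and 65.3 CPM in WT cold libraries, against 81.6, 102 and 102 CPM at room temperature (-0.35 ± 0.12, edgeR adjusted p = 0.027). Its groups overlapped, and the call was lost without WT cold replicate 2 (adjusted p = 0.12) or replicate 3 (0.12), without WT room temperature replicate 2 (0.10) or replicate 3 (0.094), and without the 2 libraries rich in muscle (0.11). It was also lost in the fit of only the libraries compared (0.062) and with the share of reads on pseudogene copies of members as a covariate (0.38). Rplp0, the scaffold of the stalk, rose by 0.28 ± 0.09 (edgeR adjusted p = 0.018), a call lost without WT room temperature replicate 1 (adjusted p = 0.054) or 3 (0.063), or WT cold replicate 1 (0.10) or 2 (0.057), or with library totals alone (0.59). Rplp1 had a log2 difference of 0.14 ± 0.10 (edgeR adjusted p = 0.23).

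In the cold, the median member was lower in KO than in WT on the TMM scale, a direction that turned round with library totals alone. The share of members called lower, 34.15%, was not far above that of all genes, while few members were called higher. Of the 82 members 4 were higher and 28 lower in KO than in WT, against 25.9% of all genes tested higher and 27.8% lower. The median member was 0.17 lower on the log2 scale, against a difference of 0.01 for all genes. The 28 lower members were 15 of the large subunit, 11 of the small subunit, Rplp0 and Rpl7l1, and the 4 higher ones were the paralogs Rpl39l, Rpl22l1 and Rps27l together with Rps19. Library totals alone gave 37 members higher and 1 (Rps26) lower in KO, where 7881 of all 15208 genes were higher and 1073 lower. The median member was then at 0.27, against 0.45 for all genes, and 14 of the 28 had the opposite sign. Levels of KO and WT did not overlap in the cold for 34 members, where 62.7% of all genes did not overlap. Without WT cold replicate 2 the count of lower members was 18, and without KO cold replicate 2 it was 17.

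Rpsa stood at 255, 245 and 311 CPM in KO cold libraries, against 420, 510 and 386 CPM in WT cold libraries. The groups did not overlap, and Rpsa was 1.62-fold lower in KO (log2 -0.70 ± 0.12, edgeR adjusted p = 0.00011). Rpl7a was at 194, 206 and 234 CPM in KO cold libraries, against 333, 335 and 311 CPM in WT, 1.54-fold lower (-0.63 ± 0.09, edgeR adjusted p = 2.7e-05). Rps6 was at 85.8, 96.5 and 123 CPM in KO, against 164, 181 and 146 CPM in WT, 1.61-fold lower (-0.68 ± 0.14, edgeR adjusted p = 0.0013).

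Rpl7l1 had the smallest p of the members, at 61.8, 63.6 and 57.1 CPM in KO cold libraries, against 106, 92.7 and 93.7 CPM in WT (-0.68 ± 0.09, edgeR adjusted p = 8.4e-06). Rps7, of the small subunit, was at 69.5, 64.2 and 70.9 CPM in KO, against 104, 97.1 and 83.7 CPM in WT (-0.48 ± 0.08, edgeR adjusted p = 0.00018). Rpl17, which lines the exit of the peptide tunnel, was at 93.7, 97.0 and 99.3 CPM in KO, against 139, 134 and 126 CPM in WT (-0.46 ± 0.08, edgeR adjusted p = 0.00017). These 6 genes kept a lower level in KO under all 26 alternatives but missed the threshold with library totals alone, where their log2 differences were -0.26 for Rpsa, -0.19 for Rpl7a, -0.25 for Rps6, -0.24 for Rpl7l1, -0.04 for Rps7 and -0.03 for Rpl17.

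Among members with other known roles, Rpl11 was lower in KO in the cold (-0.29 ± 0.10, edgeR adjusted p = 0.019) and Rpl5 was not called (-0.17 ± 0.09, edgeR adjusted p = 0.10). Their products together bind the 5S rRNA and, when free, the p53 regulator Mdm2. The Rpl11 call was lost without WT cold replicate 1 or 2 or KO cold replicate 1 or 2, with a filter of 1 CPM in 6 libraries and with the copy covariate, and its sign turned with library totals alone (0.14). Rps27a, which encodes ubiquitin fused to a ribosomal protein, had a log2 difference of -0.05 ± 0.11 (edgeR adjusted p = 0.73), turning to 0.39 with library totals alone. Rps24, the member of highest level, was lower by a log2 difference of -0.36 ± 0.10 (edgeR adjusted p = 0.0059), with 225, 238 and 271 CPM in KO cold libraries and 314, 330 and 295 CPM in WT, and turned to 0.08 with library totals alone. Rps19, which is mutated in many patients with Diamond-Blackfan anaemia, was at 109, 103 and 108 CPM in KO, against 98.4, 88.1 and 81.8 CPM in WT (0.26 ± 0.08, edgeR adjusted p = 0.014). The groups did not overlap, though the call was lost without WT cold replicate 3 (adjusted p = 0.069) and with the share of reads on copies as a covariate (0.11).

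**Figure D3:**
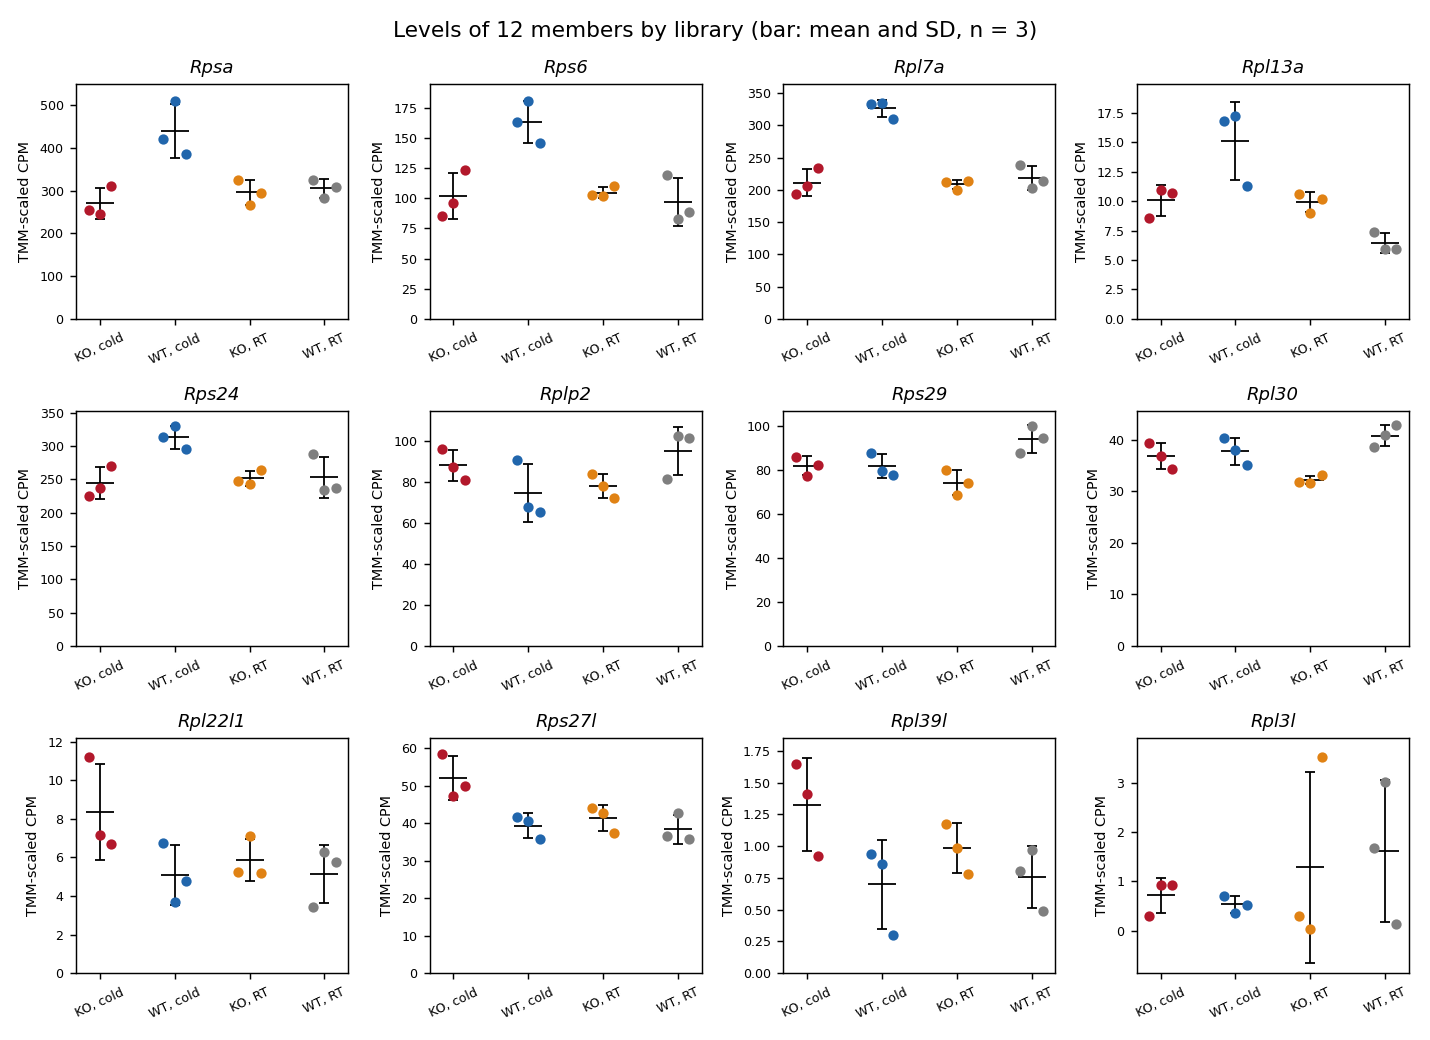
CPM with TMM scaling of 12 members (vertical axes, from 0 except Rpl3l, whose SD bars reach below 0) in the 4 groups, from KO cold on the left to WT room temperature on the right, with points for libraries and black bars for mean and SD (n = 3). Rpsa, Rps6 and Rpl7a are highest in WT cold, Rps27l in KO cold, and the 3 highest values of Rpl3l are in 3 single libraries at room temperature.

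The paralogs were set beside the genes they resemble. Rps27l, a p53-responsive paralog of Rps27, was at 58.5, 47.3 and 50.03 CPM in KO cold libraries, against 41.7, 40.7 and 35.6 CPM in WT cold libraries. It was higher in KO without overlap (0.40 ± 0.10, edgeR adjusted p = 0.0034), and this call held under all 26 alternatives. Rps27 had a log2 difference of -0.18 ± 0.09 (edgeR adjusted p = 0.093). In KO, Rps27l was also higher in the cold than at room temperature, where it stood at 44.1, 42.6 and 37.4 CPM (0.33 ± 0.10, edgeR adjusted p = 0.038). This call was lost in 6 of 24 alternatives, among them the fits without KO room temperature replicate 6 (adjusted p = 0.16), KO cold replicate 1 (0.20) or KO cold replicate 3 (0.051).

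Rpl22l1, the paralog of Rpl22, was at 11.2, 7.16 and 6.69 CPM in KO cold libraries, against 6.75, 3.68 and 4.80 CPM in WT cold libraries (0.72 ± 0.28, edgeR adjusted p = 0.047). The groups overlapped, and the call was lost in 11 of 26 alternatives. Among these were the fits without KO cold replicate 1 (0.44, adjusted p = 0.19), without WT cold replicate 2 (0.54, adjusted p = 0.15) or 3 (0.68, adjusted p = 0.12), with the replicate block (0.72, adjusted p = 0.09) and with the share of reads on copies as a covariate (0.28, adjusted p = 0.47). Rpl22 had a difference of -0.07 ± 0.08 (edgeR adjusted p = 0.46), and of 0.37 with library totals alone (adjusted p = 0.0032). Rpl39l was at 1.64, 1.41 and 0.925 CPM in KO, against 0.937, 0.862 and 0.298 CPM in WT (0.94 ± 0.36, edgeR adjusted p = 0.038). These rest on 8 to 65 counts per library, and the call was lost without WT cold replicate 3 (0.57, adjusted p = 0.17). It was also lost when either KO cold replicate 1 (0.75, adjusted p = 0.14) or replicate 2 of the same group (0.89, adjusted p = 0.089) was left out, with the copy covariate (0.86, adjusted p = 0.18) and by DESeq2 (0.94, adjusted p = 0.053). Rpl39 itself, at 22.9, 17.7 and 14.7 CPM in KO and 20.1, 13.7 and 13.3 CPM in WT, had a difference of 0.24 ± 0.21 (edgeR adjusted p = 0.36).

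Rpl3l, the muscle paralog of Rpl3, was not called in any comparison with the filter on low counts and varied from library to library. With no filter beyond 1 count it was called lower with cold in WT (edgeR adjusted p = 6.8e-06). It was at 0.303, 0.922 and 0.925 CPM in KO cold, 0.712, 0.363 and 0.521 CPM in WT cold, 0.301, 0.0318 and 3.52 CPM in KO room temperature and 1.69, 3.02 and 0.136 CPM in WT room temperature libraries. In the same order, the 15 skeletal muscle markers summed to 21.8, 166 and 277 CPM, to 110, 2.54 and 5.10 CPM, to 5.28, 5.05 and 1336 CPM, and to 344, 911 and 15.7 CPM. The 3 highest values of Rpl3l were thus in the 3 libraries of highest muscle markers. Rpl3 was at 127 to 172 CPM in all 12 libraries and was not called in any comparison on the TMM scale. Of other pairs fixed for naming, Rpl36a was at 28.7 to 38.9 CPM and Rpl10 at 74.9 to 119 CPM, with no call in any comparison on the TMM scale, though with library totals alone both were called higher in KO in the cold (0.42, adjusted p = 0.011 for Rpl36a and 0.44, adjusted p = 0.022 for Rpl10). Their paralogs Rpl36al and Rpl10l were not members. Rpl7, the relative of Rpl7l1, had a difference of -0.17 ± 0.08 in the cold (edgeR adjusted p = 0.084), and of 0.27 with library totals alone (adjusted p = 0.044).

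**Figure D4:**
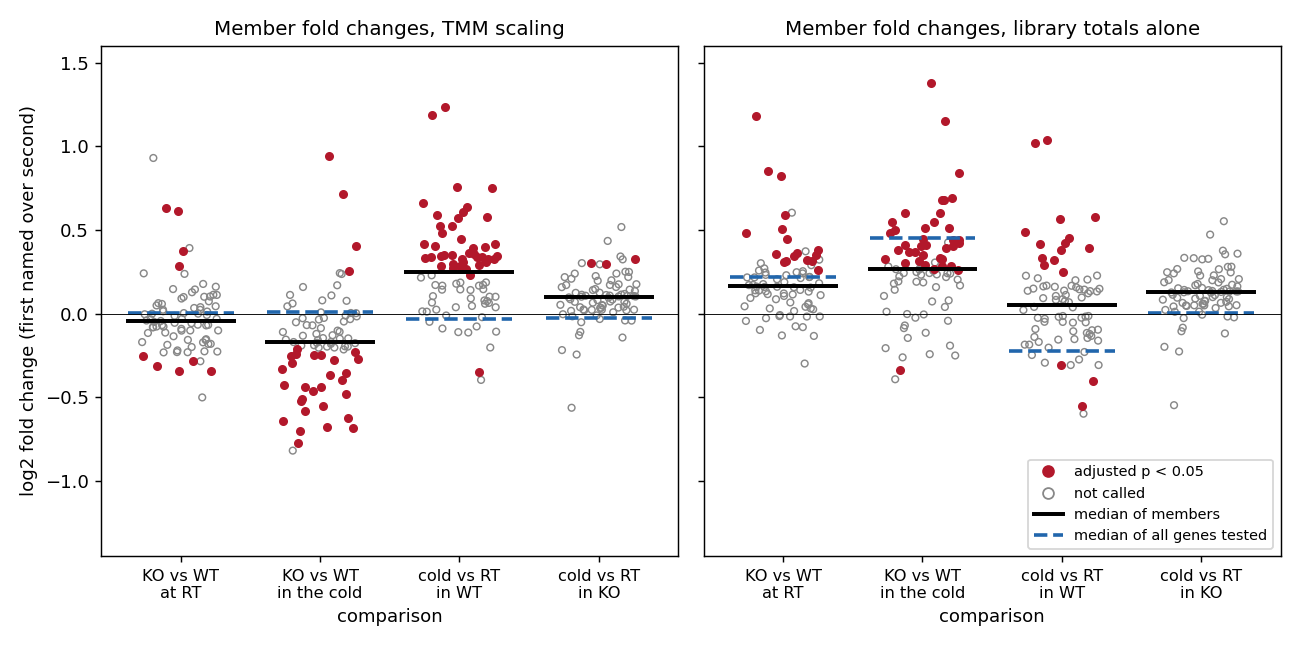
Log2 fold changes (vertical axis) of 81 members in 4 comparisons, each as the first named group over the second, with TMM scaling on the left and library totals alone on the right; Rpl3l is left out for its spread. Filled red points pass an adjusted p of 0.05, the black line is the median of the members and the dashed blue line that of all genes tested: the members' median for KO over WT in the cold is -0.17 on the left and 0.27 on the right, below the blue line in both.

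In KO, few ribosomal protein transcripts passed the test for a response to cold. Of the 82 members 3 rose and 0 fell, against 7.29% of all genes tested higher and 7.56% lower. At an unadjusted p under 0.05 edgeR had 15 higher and 0 lower. By DESeq2 6 were higher and 0 lower after adjustment, and by limma voom with sample weights 14 and 1. Over all genes, DESeq2 had 1212 of 27352 higher and 1240 lower, and limma voom 1960 of 15208 higher and 2195 lower. In the edgeR fit the median member was 0.10 higher, against -0.02 for all genes. The groups did not overlap for 24 members, where 32.8% of all genes did not overlap. Besides Rps27l, Rpl27 was at 22, 21.2 and 22.7 CPM in KO cold libraries, against 17.3, 17.7 and 18.5 CPM at room temperature (0.30 ± 0.09, edgeR adjusted p = 0.039). Rps3a1, of the small subunit, was at 92.0, 77.7 and 78.6 CPM, against 66.8, 69.6 and 65.9 CPM (0.30 ± 0.10, edgeR adjusted p = 0.044). Neither call held when any 1 KO library was left out, except that of Rps3a1 without KO cold replicate 3, and with library totals alone edgeR called 0 members after adjustment and 8, all higher, at an unadjusted p under 0.05. Of all 15208 genes, 801 were higher and 675 lower after adjustment with library totals alone.

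Setting both cold responses against each other tests whether KO and WT differ in their response. The response was smaller in KO for 16 members and larger for 2, against 12.9% and 10.6% of all genes tested, and the median of the difference (KO minus WT) was -0.15, against 0.01 for all genes. Smaller and larger refer, here and below, to the signed log2 response and not to its size. The 16 were 9 of the large subunit, 4 of the small subunit, Rps27rt, Rpl7l1 and Rps19bp1. Rpl13a differed by -1.21 ± 0.22 (edgeR adjusted p = 0.001): in KO it was at 8.57, 10.9 and 10.7 CPM in the cold and 10.6, 9.02 and 10.2 CPM at room temperature, and in WT it had risen. Rps19bp1 differed by -0.77 ± 0.15 (edgeR adjusted p = 0.0018), at 10.7, 11.4 and 13.8 CPM in KO cold libraries and 12.2, 12.4 and 11.6 CPM in KO room temperature libraries. Rpl7a differed by -0.56 ± 0.13 (edgeR adjusted p = 0.005), with 212, 200 and 213 CPM in KO at room temperature, close to its level in KO in the cold. For Rpl13a the KO libraries of both temperatures lay between the WT libraries at room temperature and those in the cold, while for Rps19bp1 they lay above the WT libraries at room temperature and overlapped those in the cold. Without WT cold replicate 2 the count of smaller responses was 7, without WT room temperature replicate 2 it was 8, and it was 9 without WT room temperature replicate 3, KO cold replicate 1 or KO cold replicate 2.

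The 2 members whose log2 response was larger in KO were Rplp2 and Rps29, a small zinc-binding protein of the small subunit. Larger here means more positive, since Rplp2 fell with cold in WT and neither gene was called with cold in KO. Rplp2 was at 96.2, 87.3 and 81 CPM in KO cold libraries and 84.0, 78.1 and 72.3 CPM in KO room temperature libraries, and the responses differed by 0.53 ± 0.17 (edgeR adjusted p = 0.037). Rps29 was at 85.9, 77.4 and 82.3 CPM in KO cold, 87.9, 79.4 and 77.7 CPM in WT cold, 79.8, 68.6 and 73.9 CPM in KO room temperature and 87.6, 99.9 and 94.5 CPM in WT room temperature libraries, with a difference of responses of 0.35 ± 0.12 (edgeR adjusted p = 0.046). Neither call held without WT room temperature replicate 2 or 3, KO room temperature replicate 5 or 6, WT cold replicate 2 or 3, or KO cold replicate 1 or 2.

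The mean share of counts on pseudogene copies also varied between the groups, as a description with no test. In this share, WT cold libraries overlapped those of KO cold and of WT room temperature. Reads on copies made up 1.25 ± 0.175% of member and copy counts in KO cold, 1.601 ± 0.248% in WT cold, 1.65 ± 0.162% in KO room temperature and 1.29 ± 0.179% in WT room temperature libraries (SD, n = 3 each). Within groups, the library with the highest share of copy reads (KO cold 3, WT cold 2, KO room temperature 6 and WT room temperature 1) was in all 4 groups also the highest for Rpl7a, Rps24, Rps26 and Rps6, 4.88% of members, against 2.74% of all genes tested. That was 4 of 82 members and 416 of 15208 genes, and the 4 are named for the match itself. With the log2 share of reads on copies as a covariate, a fit added after the data had been seen, 0 members and 265 of 15208 genes had responses that differed, against 18 members and 3581 genes without it. The share is computed in part from the members' own counts and its mean differs between the groups, so that fit cannot separate copy reads from the groups. At an unadjusted p under 0.05 that edgeR fit had 4 members with a smaller response in KO and 0 with a larger one. The difference was then -0.90 for Rpl13a, -0.66 for Rps19bp1, -0.56 for Rpl7l1, -0.34 for Rpl7a and for Rpsa, -0.23 for Rps6 and 0.06 for Rplp2. Without the covariate the members' median difference was -0.15 and that of all genes 0.01, and with it they were -0.17 and -0.02. In that fit the count of members lower in KO in the cold was 14, and that of members higher with cold in WT was 30.

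**Figure D5:**
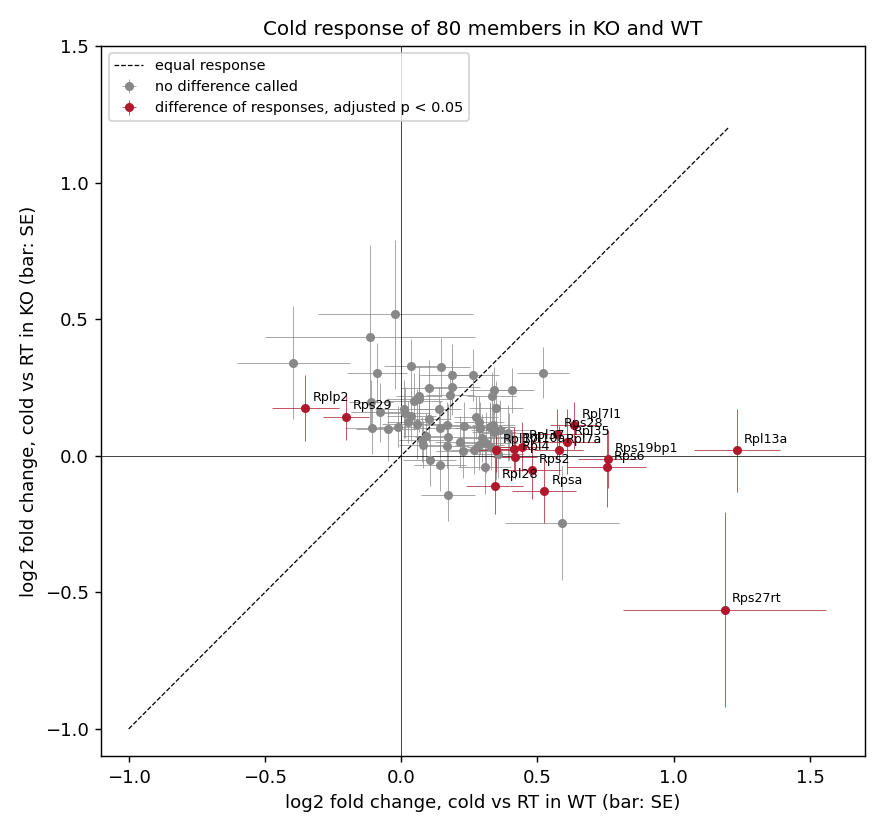
Log2 fold change of cold over room temperature in KO (vertical axis) against the same in WT (horizontal axis) for 80 members, with bars for the SE and a dashed line of equal response; Rpl3l is left out for its spread. Red points are 17 members whose responses differed: 15 lie below the line, Rpl13a at 1.23 in WT and 0.02 in KO among them, and Rplp2 and Rps29 lie above it.

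At room temperature 9 members differed between the genotypes. There were 4 higher and 5 lower in KO, against 19.3% of all genes tested higher and 21.0% lower, and the median was -0.05, against 0.00 for all genes. The genotypes did not overlap for 29 members, where 48.8% of all genes did not overlap. With library totals alone edgeR had 17 higher and 0 lower, and 30 and 0 at an unadjusted p under 0.05. Of all 15208 genes, 4739 were then higher and 1267 lower after adjustment. The median was 0.17 for the members and 0.22 for all genes under that scaling. Rpl13a was at 10.6, 9.02 and 10.2 CPM in KO, against 7.40, 5.95 and 5.96 CPM in WT (0.63 ± 0.16, edgeR adjusted p = 0.0043), and Rps19bp1 at 12.2, 12.4 and 11.6 CPM, against 7.78, 8.08 and 7.84 CPM (0.61 ± 0.11, edgeR adjusted p = 0.00031). These were 2 of the members that rose with cold in WT. Rpl41 was at 198, 186 and 189 CPM in KO, against 153, 144 and 147 CPM in WT (0.37 ± 0.09, edgeR adjusted p = 0.0026). All 3 were higher in every KO library than in any WT library, and the calls of Rps19bp1 and Rpl41 held under all 24 alternatives of this comparison, while that of Rpl13a was lost without the 2 libraries rich in muscle (0.56, adjusted p = 0.059) and with the share of reads on copies as a covariate (0.48, adjusted p = 0.077). Rps28 was the other higher member (0.29 ± 0.09, edgeR adjusted p = 0.021), a call lost in 7 of 24 alternatives, among them the fits without WT replicate 2 (adjusted p = 0.068) or 3 (0.061) or KO replicate 4 (0.062) or 6 (0.056).

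The members lower in KO at room temperature were Rpl30, Rps29, Rpl27a, Rps9 and Rps4x. Rpl30, of the large subunit, was at 31.8, 31.7 and 33.1 CPM in KO, against 38.7, 40.9 and 42.9 CPM in WT (-0.34 ± 0.08, edgeR adjusted p = 0.0033). Rps29 differed by -0.34 ± 0.09 (edgeR adjusted p = 0.0044) and Rpl27a by -0.31 ± 0.08 (edgeR adjusted p = 0.0039). Rps9 (-0.28 ± 0.10, edgeR adjusted p = 0.040) and Rps4x (-0.26 ± 0.09, edgeR adjusted p = 0.037) each lost their call in 10 of 24 alternatives, leaving out WT replicate 2 or 3 or KO replicate 5 or 6 among them. None of the 5 passed with library totals alone, where their log2 differences were -0.13 for Rpl30 and Rps29, -0.10 for Rpl27a, -0.08 for Rps9 and -0.04 for Rps4x.

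Other genes of translation were read from lists of related functions, on the TMM scale unless library totals are named. Fau and Rack1 are ribosomal proteins outside the symbol rule. Rack1, the scaffold at the head of the small subunit, was at 147, 148 and 158 CPM in KO cold libraries, against 220, 193 and 164 CPM in WT cold libraries (-0.35 ± 0.09, edgeR adjusted p = 0.0055), and Fau was not called (-0.11 ± 0.08, edgeR adjusted p = 0.26). These differences were, with library totals alone, 0.09 for Rack1 (adjusted p = 0.54) and 0.33 for Fau (adjusted p = 0.024).

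Among 20 elongation factors and other TOP mRNAs, 17 were lower and 1 higher in KO in the cold (median -0.33), and 14 rose and 1 fell with cold in WT (median 0.31), beside the same background as the members. Pabpc1, the poly(A)-binding protein, differed by -0.57 ± 0.10 between KO and WT in the cold (edgeR adjusted p = 0.00015). Of 28 initiation factors, 19 were lower in KO in the cold (median -0.34), and 26 rose with cold in WT (median 0.48). Eif4a1, the helicase of initiation, was lower in KO in the cold by a log2 difference of -0.61 ± 0.08 (edgeR adjusted p = 1.2e-05). Under library totals alone, a scaling added for these lists after the data had been seen, 2 elongation and TOP genes were higher and 0 lower in KO in the cold (median 0.11), and 9 initiation factors were higher and 2 lower (median 0.10), where the median gene stood at 0.45. Of all 15208 genes, 7881 were then higher and 1073 lower. Pabpc1 was then at -0.13 (adjusted p = 0.27) and Eif4a1 at -0.17 (adjusted p = 0.17). With cold in WT, 15 initiation factors still rose and 0 fell, but of the elongation and TOP genes 3 rose and 1 fell. Of all genes, 1826 rose and 4813 fell under that scaling.

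Of 39 ribosome assembly genes tested, 20 were lower and 3 higher in KO in the cold, 30 rose and 1 fell with cold in WT, and 7 rose with cold in KO. Of all genes tested, 27.8% were lower and 25.9% higher in KO in the cold, 23.0% rose and 23.2% fell with cold in WT, and 7.29% rose with cold in KO. Nop2, an rRNA methyltransferase, rose by 1.36 ± 0.11 with cold in WT (edgeR adjusted p = 9e-08), and Rrp12, which exports both subunits in yeast, was lower in KO in the cold (-0.84 ± 0.10, edgeR adjusted p = 4.2e-06). Of 16 genes of RNA polymerase I and its factors, 10 were lower in KO in the cold (median -0.32). Its largest subunit gene, Polr1a, differed by -1.01 ± 0.08 (edgeR adjusted p = 1.2e-07) in the cold and by -0.30 ± 0.08 (edgeR adjusted p = 0.009) at room temperature. The list of 25 genes of the mTORC1 pathway mixes parts of the complex with its inhibitors and targets, so its counts give no direction of the pathway. Of these genes, 13 were lower and 2 higher in KO in the cold, with Rptor at -0.84 ± 0.08 (edgeR adjusted p = 3.4e-07). With cold in WT 11 of these rose and 6 fell, and the list median was 0.02. Library totals alone gave calls between KO and WT in the cold of 14 higher and 5 lower for the assembly genes, 4 and 1 for RNA polymerase I and 9 and 3 for the mTORC1 pathway, so that the larger count changed direction in all 3 lists. Of all 15208 genes, 7881 were higher and 1073 lower under that scaling. Rrp12 (-0.41, adjusted p = 0.0091), Polr1a (-0.58, adjusted p = 0.00011) and Rptor (-0.40, adjusted p = 0.0029) were still called lower in KO in the cold. Nop2 still rose with cold in WT (1.17, adjusted p = 6.5e-07), as did 19 assembly genes, while 1 fell. Of the mTORC1 genes 4 then rose and 9 fell with cold in WT, and of all genes 1826 rose and 4813 fell.

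Reads on copies could be counted only where they aligned once, and whether they came from the member or from the copy was not tested. Annotated pseudogenes with the symbol of a member, 281 in all, held 12038 counts over the 12 libraries, and copies found by symbol or by sequence (at least 90% identity over at least 150 bases and 50% of the shorter sequence), 1039 in all, held 41803, against 2890907 counts on the members. A copy by symbol or sequence was found for 75 members. The richest copies were Gm2830, a copy of Rps24, with 4253 counts, Rpl37rt, a copy of Rpl37, with 3454, and Gm14303, a copy of Rps29, with 2290. By share of the member and copy counts, the copies of Rpl39 held most, 15.4%, of which Rpl39-ps on chromosome 15 held 1205 counts. Over the first 90 coding bases Rpl39-ps has the sequence of Rpl39. The copies of Rpl29 followed with 13.1% and those of Rpl37 with 10.04%. Rpl24, which is not a member, had 0 counts, against 1418 on its copies. Adding the copies by symbol to their members left 4 higher and 29 lower in KO than in WT in the cold, while 42 rose and 1 fell with cold in WT. The call of Rps29 for the difference of cold responses was lost when copies by symbol or sequence were added (0.19, adjusted p = 0.25).

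Correlations of the differences with shared sequence were small. Over the 75 structural members, Spearman's rho between the percent of shared 50-base windows and the log2 difference was 0.08 for KO over WT in the cold and 0.04 for cold over room temperature in WT, as a description over genes of the same libraries. Of 29 structural members that share under 50% of their windows, 13 were lower in KO in the cold (median -0.20), and of 46 that share at least 50%, 14 were lower (median -0.15). Transcript length gave a rho of -0.38 with the difference of KO over WT in the cold, so longer members tended to be lower, and of 0.26 with cold in WT. GC content of the transcript gave -0.04 and 0.19 in these comparisons and 0.43 for KO over WT at room temperature. An annotated small nucleolar RNA lay inside 29 structural members, of which 13 were lower in KO in the cold (median -0.20), as were 14 of the 46 others (median -0.15).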

How the data were processed

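RNA of 12 pools was sequenced, and the deposited files hold whole-number counts for each Ensembl gene without normalisation, which the authors made with STAR and HTSeq on GRCm38 per the submitters' processing notes; versions, library kit and read length are not given in the sources used here. The deposited file names refer to a reverse strand setting, which nothing else records, so overlapping genes are uncertain. The 5 HTSeq summary lines, 31.3 to 34.7% of each file's total, entered neither library sizes nor tests. GENCODE M21 named 53274 of 53379 IDs. Groups came from the labels.

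All 12 libraries entered 1 edgeR fit (version 4.0.16, in R 4.3.3) with filterByExpr, which kept 15208 genes, the 82 members among them, TMM factors, 1 mean per group and robust quasi-likelihood tests, 2-sided, with Benjamini-Hochberg adjustment over 15208 genes and a threshold of 0.05; the common coefficient of biological variation was 13.6%. SE is the log2 difference divided by the square root of F. The script was tested on simulated data. Libraries within groups differed by far more than sampling noise. Alternatives, some with DESeq2 1.42.0 and limma 3.58.1, are given in the closing section. Copies were found with BLAST 2.17.0. Promoters came from RefSeq (62 members matched, GRCm38.p6).

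Members and lists were chosen with earlier results of these data known. Members are named by fixed pairs and roles, by the smallest p in each comparison (up to 5 per direction, 3 for the difference of cold responses), by the highest and lowest levels, and by the largest differences; other members whose cold response differed are named after their values were seen. A few genes are not reported here. From other lists, genes of smallest p are named. Levels in CPM are counts relative to the TMM-scaled library size.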

Additional observations from a re-analysis of the deposited data

Results flagged for a closer look

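For the 17 members given here the cold response differed between genotypes by the test of the difference itself (edgeR's quasi-likelihood test, adjusted p under 0.05 over 15208 genes, 3 pools per group), which is what marked them. Values are the log2 response in KO minus that in WT. Of the large subunit, Rpl13a had -1.21, Rpl7a -0.56, Rpl35 -0.56, Rpl28 -0.45, Rpl4 -0.42, Rpl37 -0.41, Rpl10a -0.39 and Rpl17 -0.33. Of the small subunit, Rps6 had -0.80, Rpsa -0.66, Rps2 -0.53, Rps28 -0.49 and Rps29 0.35. The stalk gene Rplp2 had 0.53, and Rps27rt had -1.75, Rps19bp1 -0.77 and Rpl7l1 -0.52. All 17 lost the call with the share of reads on copies as a covariate. That share is computed in part from the members' own counts and its mean differs between the groups, and over all genes the calls went from 3581 to 265. Of 23 alternatives, the fit with this covariate was the 1 that ended the call for Rpl13a and Rps19bp1, and 2 or 3 ended it for Rpl7a, Rpl7l1, Rps6, Rpsa and Rps28. The call was lost in 5 for Rpl4, 6 for Rps2, 7 for Rps27rt, 9 for Rpl10a, 10 for Rplp2, 11 each for Rpl35, Rpl37 and Rpl28, 12 for Rps29 and 16 for Rpl17, which was at an adjusted p of 0.048 by edgeR and of 0.052 with median-ratio size factors.

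With library totals alone Rpl13a, Rps6, Rps19bp1 and Rps27rt kept a smaller response in KO, and Rplp2 and Rps29 a more positive one. Rps26, which missed the threshold on the TMM scale (-0.83 ± 0.30, edgeR adjusted p = 0.066), was at 67.8, 74.8 and 107 CPM in KO cold, 130, 161 and 134 CPM in WT cold, 101, 86.0 and 108 CPM in KO room temperature and 124, 78.6 and 80.5 CPM in WT room temperature libraries. With the share of reads on copies as a covariate its difference was -0.09. The part of copy reads in these differences cannot be told apart from the groups here, since their mean share was higher in WT cold and KO room temperature libraries.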

How the results depend on the processing

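With library totals alone, members higher and lower numbered 17 and 0 between KO and WT at room temperature, 37 and 1 between them in the cold, 14 and 3 for cold against room temperature in WT, 0 higher for cold in KO, and 4 and 6 for the difference of cold responses. Over all 15208 genes, in the same order, these were 4739 and 1267, 7881 and 1073, 1826 and 4813, 801 higher, and 2388 and 711. For KO against WT in the cold the sign turned positive for 49 of the 82 members, among them Rpl11 (0.14), Rpl22 (0.37), Rpl27 (0.37), Rpl27a (0.22), Rpl3 (0.31), Rpl30 (0.40), Rpl36a (0.42), Rpl7 (0.27), Rplp0 (0.19), Rplp1 (0.35), Rps24 (0.079), Rps27a (0.39) and Rps4x (0.33). With the share of reads on copies as a covariate, chosen after seeing the data, the counts were 2 and 1, 1 and 14, 30 and 0, 0 higher, and 0 and 0, in the same order. Without the 2 libraries rich in muscle they were 2 and 2, 3 and 28, 30 and 0, 0 higher, and 0 and 4.

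With no filter 3 members fell with cold in WT, 8 rose in KO and 4 had a larger response. With a filter of 1 CPM in 6 libraries 3 were lower in KO at room temperature, 2 fell with cold in WT and 5 rose in KO. With only the libraries compared 0 fell in WT and 6 rose in KO. With copies added by symbol or sequence, chosen after seeing the data, 1 rose in KO and 1 had a larger response. DESeq2 had 9 lower in KO at room temperature and 6 higher with cold in KO, as were 3187 and 1212 of 27352 genes. Limma voom had 18 lower at room temperature, 44 lower in the cold, 2 that fell with cold in WT, 14 higher and 1 lower with cold in KO, and 5 larger and 26 smaller responses. Over all 15208 genes, in the same order, limma voom had 3791, 4832, 3909, 1960 and 2195, and 2446 and 2807. The causes of these changes were not tested.

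Leaving out 1 library gave 3 to 6 higher and 3 to 10 lower in KO at room temperature, 1 to 7 and 17 to 38 in the cold, 30 to 44 and 0 to 3 with cold in WT, 0 to 6 higher with cold in KO, and 0 to 4 and 7 to 19 for the difference.

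Replicate numbers were shared by WT at both temperatures and KO in the cold, but same-numbered libraries did not deviate together (correlations of -0.32 to 0.24, against -0.30 to 0.36 for other numbers), so they share a number only. With the replicate block, 3 members were higher and 23 lower in KO in the cold, and 38 rose and 1 fell with cold in WT. Without it the same 9 libraries gave 3 and 28, and 43 and 2. No paired analysis was possible for KO at room temperature because its numbers are not shared.

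Left out of the total, mitochondrially encoded genes raised the members' share of reads to 1.253% in KO cold, 1.193% in WT cold, 1.182% in KO room temperature and 1.087% in WT room temperature libraries. Copies by symbol or sequence held 1.448% of member and copy counts, against 0.424% for copies by symbol. Members' own counts, 1 to 108 per library for Rpl3l and 8 to 65 for Rpl39l, limit those paralogs.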
